A study of Saccharomyces cerevisiae with 10 samples.

Results

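Yeast strains used to follow genome instability carry genes that can be selected for or against, and 7 of them were examined here along SNP microarrays of 10 diploid Saccharomyces cerevisiae isolates: LYS2, CAN1, URA3, LEU2, TRP1, HIS3 and ADE2. The genes were chosen with earlier results of these arrays known, by a rule which takes every probe placed in a gene or within 1 kb of it. That rule found 92 of the 53664 probes, at 23 of the 13737 SNPs on the array, and 10 of the 23 SNPs lay inside a gene. The same values chose the genes, so the levels of LYS2 and CAN1 against their surroundings are given as a description, without a test.

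The series is about genome instability that arises where the nuclease RNase H2 cleaves ribonucleotides built into DNA. Each isolate's DNA, in Cy5, shared 1 array with DNA of JSC24, a control diploid, in Cy3. The groups were 4 zygotes of MD893-1 crossed with LSY3454-2, 2 zygotes of MD893-2 crossed with the same second parent, and the HK10 and HK12 strains with 2 purified isolates each, A and B. All 10 isolates and JSC24 are labelled as diploids, the isolates have the strain background W303-1A by YJM789, and growth was at 30 degrees in or on the rich medium YPD. The labels give no genotype at RNase H2 or at any marker gene for the parents, the HK strains or JSC24, and none is assumed. Zygotes are called independent, whereas an HK name's A and B isolates may stem from 1 culture, so p-values measure the spread between these samples, which may be technical in part.

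Each marker encodes an enzyme or transporter whose loss can be scored on plates. LYS2 encodes alpha-aminoadipate reductase of lysine synthesis, and cells lacking it can be selected on alpha-aminoadipate. CAN1 encodes the arginine permease of the plasma membrane, which also takes up the toxic analogue canavanine, so that loss of CAN1 gives resistance. URA3 encodes orotidine phosphate decarboxylase of pyrimidine synthesis, and its loss gives resistance to fluoro-orotic acid. LEU2 encodes isopropylmalate dehydrogenase of leucine synthesis, TRP1 phosphoribosylanthranilate isomerase of tryptophan synthesis, and HIS3 imidazoleglycerol phosphate dehydratase of histidine synthesis. ADE2 encodes phosphoribosylaminoimidazole carboxylase of adenine synthesis, whose loss lets a red pigment build up in the colony.

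At each SNP the array holds probes for alleles named S and Y, letters which the labels do not define. A level below is the log2 ratio of isolate to JSC24 for 1 allele, relative to the median of the array, and a local level is that value minus the median of the same allele over the SNPs within 20 kb outside the gene and its 1 kb margins. A ratio is always relative to JSC24, which all 10 arrays share, so a raised level in the isolates and a low signal in the control cannot be told apart.

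The array covered the 7 genes unequally. LYS2 on chromosome II had 11 SNPs in its window, 6 of them in the gene, the first at 469797 and the last at 473586. CAN1 on chromosome V had 7 SNPs, 4 in the gene, the first at 32231 and the last at 33332. The URA3 window on chromosome V held 2 SNPs, at 117001 and 117276, and the HIS3 window on chromosome XV held 3, at 721827, 721908 and 723519, and none of these 5 lay inside the gene. No SNP fell in the windows of LEU2, TRP1 and ADE2, which sit in gaps of 13.6 kb, 11.6 kb and 29.2 kb between neighbouring SNPs on chromosomes III, IV and XV. Of 6002 protein-coding genes of the reference annotation R64, 81.6% had a SNP in a window made the same way. Positions are those of the array's probe names, whose build is not given in the sources used here. A check against tRNA genes placed them near R64 positions but did not show them to be exactly on them. The fewest SNPs in tRNA genes were found at a shift of 25 bp, from counts too small to fix its size. A SNP close to the edge of a gene could lie on either side of it.

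**Figure D1:**
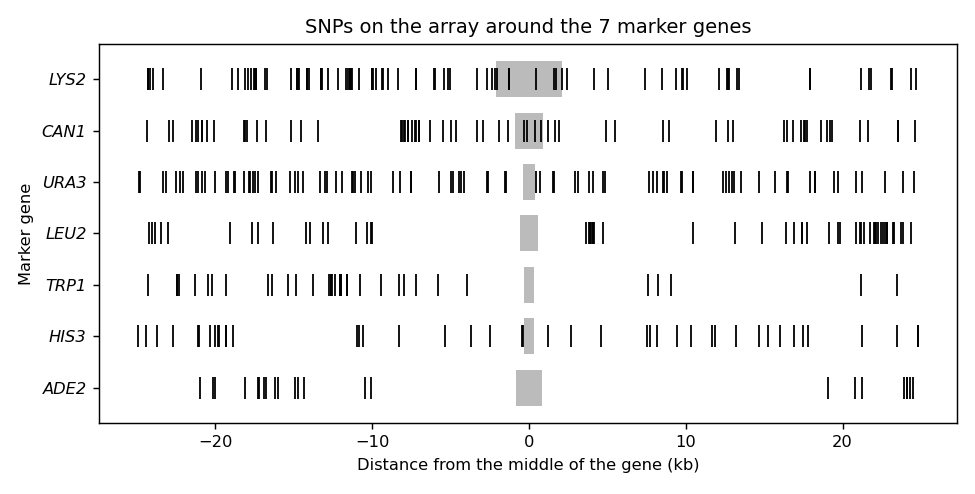
SNPs on the array within 25 kb of each marker gene, plotted by distance from the middle of the gene in kb. Grey bars are the genes and black ticks the SNPs. LYS2 and CAN1 hold SNPs, URA3 and HIS3 have them only beside the gene, and LEU2, TRP1 and ADE2 lie in gaps.

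At LYS2 the S allele was low in all 10 isolates while the Y allele stayed much nearer its surroundings. Over 9 adjacent SNPs from 469650 to 474265, the median local level of the S allele was -2.77, -2.57, -3.15 and -3.34 in zygotes 1 to 4 of the MD893-1 cross. It was -3.53 and -3.71 in zygotes 1 and 2 of the MD893-2 cross. HK10 A had -3.63 and HK10 B -3.47, whereas HK12 A had -3.08 and HK12 B -3.06. These SNPs were picked because every isolate lay at least 1 below its flank at each of them, so no isolate could be near 0. Zygotes 1 and 2 of the MD893-1 cross were the least low, and the zygotes (-3.71 to -2.57) and HK isolates (-3.63 to -3.06) overlapped. The mean over isolates was -3.23 ± 0.37 (SD, n = 10), and the median of -3.24 is a ratio 9.48-fold lower than around the gene. Over all 11 SNPs of the window, 9 of them the picked SNPs, the mean was -3.01 ± 0.39 (SD, n = 10). This value too follows largely from the choice. The Y allele over the 9 SNPs had local levels of -0.33 to -0.11 with a median of -0.19, which is a small shift in the same direction in each isolate. By SNP median it was lowest at 472300, inside the gene, where the Y level ranged from -0.65 to -0.28 over the 10 isolates.

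The stretch of low S signal was close to the gene in length. The 9 SNPs span 4.615 kb, against 4.179 kb for LYS2, and the unaffected SNPs on either side, at 469493 and 475966, are 6.473 kb apart. The left end is placed within 157 bp and the right end only within 1701 bp. At 469493 the S level ranged from -0.40 to 0.18, and 157 bp further, at 469650, from -3.46 to -2.0. On the right the S level ranged from -4.49 to -1.83 at 474265, the last SNP within 1 kb of the gene, and from -0.46 to 0.21 at 475966, the first beyond it. The Y allele at 475966 had a value on only 4 arrays, from -0.97 to 0.56.

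**Figure D2:**
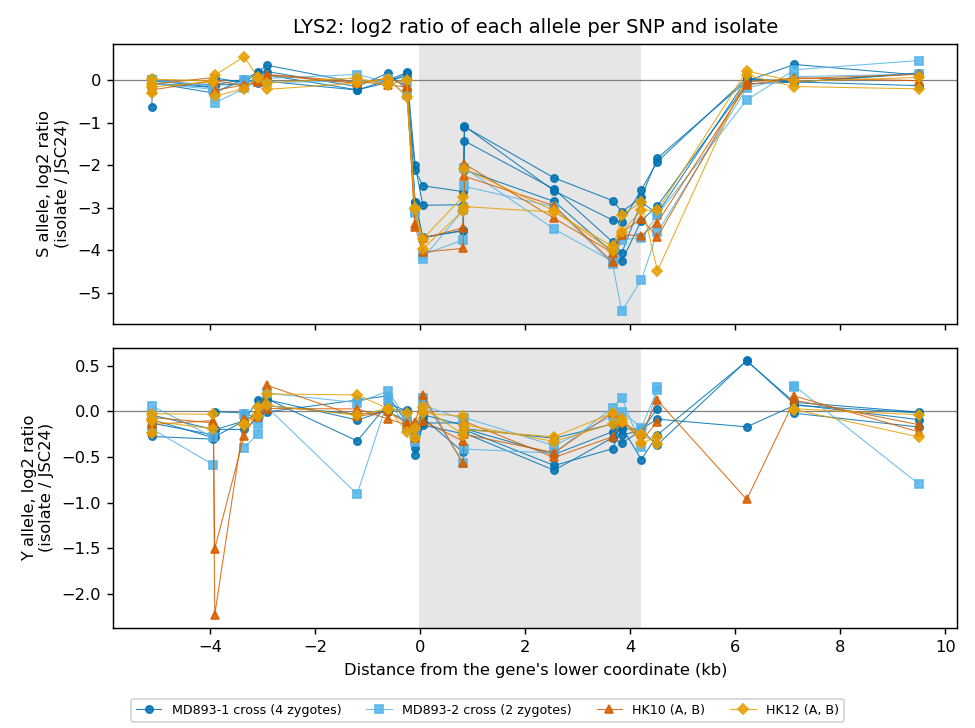
Levels of the S allele (top) and Y allele (bottom) at each SNP around LYS2, as log2 ratio of isolate to JSC24 against distance in kb from the gene's lower coordinate, 1 line per isolate and the gene in grey. All 10 lines of the S allele drop together across the gene, to SNP medians between -4.04 and -2.08, and return by 475966. The Y allele shifts less, with SNP medians in the gene from -0.45 at 472300 to -0.03 at 469797.

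The depth of the drop differed between SNPs. The lowest SNP median of the S level was -4.04, at 473410 inside the gene, where the 10 isolates ranged from -4.33 to -2.83. At the first SNP in the gene, 469797, the S median was -3.73, and at the last, 473586, it was -3.61. The shallowest SNP was 470590, at -2.08 with a range of -2.98 to -1.08, although the SNP 27 bp away at 470563 had a median of -3.27. In the same DNA, the S level at 470590 was higher than at 470563 by 0.09 to 2.10, and by more than 1 in 7 of 10 isolates. Both strands were low at every one of the 9 SNPs: the medians of forward-strand probes ranged from -4.25 to -1.96 and those of reverse-strand probes from -3.87 to -2.06.

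Across the genome this pattern was rare. An allele was counted as departing from its surroundings where at least 8 arrays had a value. Every one of these local levels had to lie at least 1 log2 unit from 0 on the same side. The flank was taken around each SNP, leaving out 1 kb on either side of it. In the marker windows it was instead taken outside the gene and its 1 kb margins, so the LYS2 SNPs were measured against a different flank. The S allele lay below its flank at 9 of 13101 SNPs (0.0687%), and those are the 9 SNPs at LYS2. The S allele lay above its flank at 2 SNPs (0.0153%), the single SNPs 370173 and 371629 of chromosome XV, with local levels of 1.45 and 1.65. The Y allele departed upward at 0 and downward at 0 of 12720 SNPs (0% each). LYS2 was thus the only run of at least 2 adjacent SNPs by this count, and no other run could be named as like it. A run that fills most of its own flank would not be counted, because the flank would shift with it. Since the genes were proposed with these values in view, the counts describe LYS2 and test nothing.

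At CAN1 the other allele stood out, in the other direction. The Y allele was high at 6 adjacent SNPs from 31251 to 33770, with median local levels of 1.89, 1.90, 1.56 and 1.63 in zygotes 1 to 4 of the MD893-1 cross. In the MD893-2 cross they were 1.04 and 1.72. HK10 A had 1.10 and HK10 B 0.65, whereas HK12 A had 1.32 and HK12 B 0.92. These SNPs were picked because the median Y local level over isolates was at least 1 at each of them, so a raised level follows from the choice. All 10 isolates were above 0, HK10 B was the lowest, and the zygotes (1.04 to 1.90) and HK isolates (0.65 to 1.32) overlapped. The mean was 1.37 ± 0.43 (SD, n = 10), and the median of 1.44 is a ratio 2.71-fold higher than around the gene. The values per isolate rest on 2 to 5 of the 6 SNPs, and not on the same SNPs in every isolate. Over all 7 SNPs of the window, 6 of them the picked SNPs, the mean was 1.24 ± 0.46 (SD, n = 10). This value too follows largely from the choice.

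Most values of the Y allele inside CAN1 were absent. Of the 80 probe values of the Y allele in the gene, 58 (72.5%) were missing, against 11.2% over its flank, and 1 of 80 (1.25%) was missing for the S allele. The Y allele was measured on 6 arrays at 32231, on 1 at 32429, on 3 at 32990 and on 4 at 33332, whereas the S allele was measured on 10 at each of them. Over the whole array the Y allele lacked a value on at least 7 arrays at 181 of 13461 SNPs (1.34%), so 2 of the 4 SNPs in CAN1 belong to a small class. What made the values missing is not given in the sources used here, and a low signal in either dye was not tested.

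The SNPs beside the gene had fuller data. At 33770 the Y allele was measured in 10 isolates, with levels of 1.10 to 1.76 in the 6 zygotes and 0.62 to 1.22 in the 4 HK isolates, so the ranges overlapped. At 31251, measured in 9, it ranged from 0.97 to 2.20, all through forward-strand probes. At the same SNP the S allele was low, from -0.83 to -0.67 in all 10 isolates, with medians of -0.86 on the forward and -0.70 on the reverse strand. At the SNPs in the gene the S allele was not low: its medians were 0.14 at 32231, 0.47 at 32429, 0.07 at 32990 and -0.02 at 33332. The raised stretch spans 2.519 kb, against 1.773 kb for the gene. It ends between 30652 and 31251 on the left, within 599 bp, and between 33770 and 34235 on the right, within 465 bp. Just outside the 1 kb window the Y level was 0.17 to 0.56 at 30652, and just inside its other edge it was -0.17 to 0.51 at 34235.

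**Figure D3:**
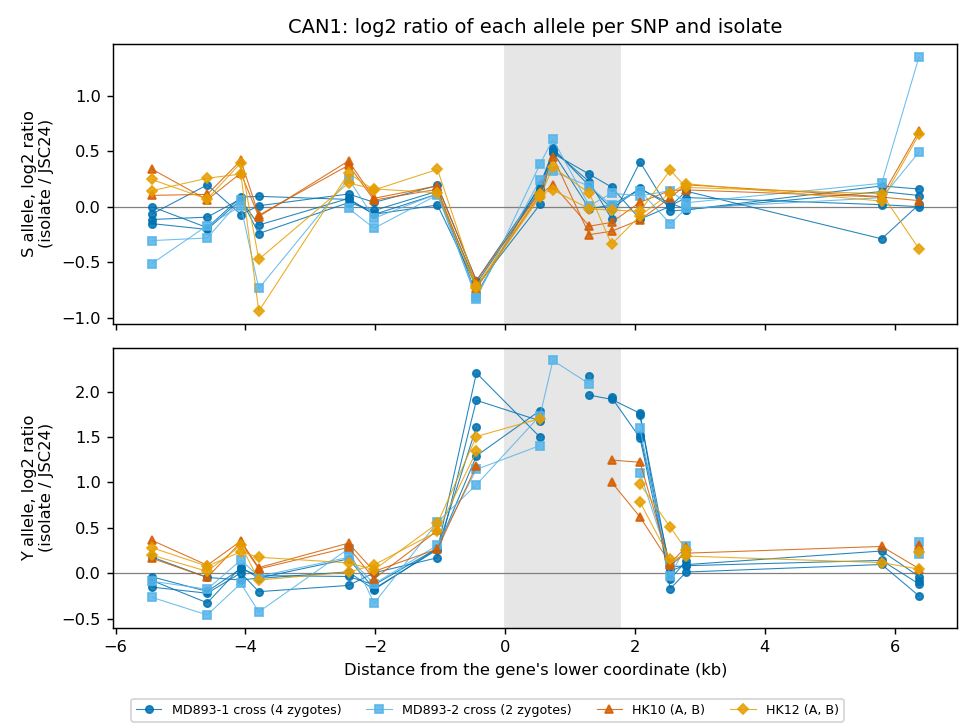
Levels of the S allele (top) and Y allele (bottom) at each SNP around CAN1, as log2 ratio of isolate to JSC24 against distance in kb from the gene's lower coordinate, 1 line per isolate and the gene in grey. The Y allele is raised across the gene, from 0.97 to 2.20 at 31251 and 0.62 to 1.76 at 33770, and its points inside the gene are few because 72.5% of those values are missing. The S allele is low in all isolates at 31251 only.

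By the count used for LYS2, 0 SNPs at CAN1 departed, because only 3 of its 7 SNPs had the Y allele on 8 arrays and 3 HK isolates at 33770 and 1 zygote at 31251 fell under 1. With values required on 3 arrays only, a setting chosen after seeing the data, 14 SNP alleles departed. The number tested at 3 arrays is not given here, so these 14 are a count without a share. At 8 arrays the S allele departed at 9 SNPs downward and 2 upward of 13101, and the Y allele at 0 of 12720. The Y allele at 32231 and 32990 was among the 14. It was measured there on 6 and 3 arrays, so these CAN1 alleles entered only through the choice of setting. At 32990 the 3 arrays with a value were all of zygotes, so the HK isolates were not measured there. At 32231 HK12 A was the only HK isolate with a value. The median local level of the S allele over the 6 CAN1 SNPs was 0.04 to 0.18 in the zygotes and -0.29 to -0.16 in the HK isolates, without overlap. Before the flank was subtracted it was 0.09 to 0.19 and -0.17 to 0.00. Among 2231 blocks of 6 adjacent SNPs on the array, 1.7% had all HK isolates below all zygotes in the same way, a comparison chosen after its values were seen.

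Beside URA3 and HIS3 both alleles stayed within 1 log2 unit of their surroundings at every SNP and in every isolate. At the single SNPs next to URA3 the local level ranged from -0.23 to 0.16 for the S allele and from -0.19 to 0.21 for the Y allele. Taken as the median of the 2 SNPs per isolate, the S allele was at -0.10 to 0.06 in the zygotes and -0.20 to 0.09 in the HK isolates, and the Y allele at -0.07 to 0.06 over all 10. The spread was wider next to HIS3, where the local level at single SNPs ranged from -0.37 to 0.49 for the S allele and from -0.55 to 0.31 for the Y allele. As the median of the 3 SNPs per isolate, the Y allele ranged from -0.31 to 0.05, with a median of -0.10 over the isolates. The S allele's median was -0.23 to -0.04 in the zygotes, whereas HK10 A and B had 0.12 and 0.16 and HK12 A and B had -0.02 and 0.06, without overlap between zygotes and HK isolates. Before the flank was subtracted they overlapped, at -0.22 to 0.00 in the zygotes and -0.07 to 0.08 in the HK isolates. Of 4456 blocks of 3 adjacent SNPs, 1.64% had all HK isolates above all zygotes after the same subtraction, and this comparison too was chosen after its values were seen. By the array's positions no SNP lies in URA3 or HIS3, so departures inside these genes were not measured. The nearest SNPs are 31 bp from URA3 and 38 bp from HIS3, distances at which those positions are not certain.

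**Figure D4:**
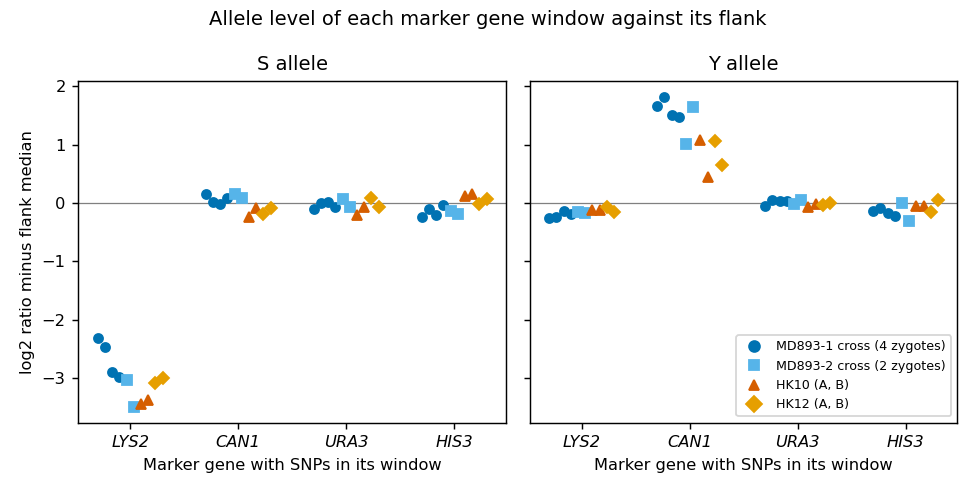
Local level of the S allele (left) and Y allele (right) over the SNPs in each gene's window, as log2 ratio minus the flank's median, 1 point per isolate. The S allele of LYS2 lies between -3.50 and -2.31 and the Y allele of CAN1 between 0.46 and 1.83, while the points of URA3 and HIS3 lie between -0.31 and 0.16.

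TRP1 has no SNP of its own, but the SNPs at its sides differed in HK12. TRP1 lies between the SNPs 458195 and 469765 of chromosome IV. At 458195 the S level was 0.55 and 0.54 and the Y level -2.66 and -1.98 in HK12 A and B. At 469765, to the right of the gene, the S level was 0.08 and 0.20 and the Y level -2.01 and -2.0. In both HK12 isolates the Y allele was thus low on both sides of TRP1, whereas in the other 8 isolates it was between -0.30 and 0.65 at these SNPs. The difference d, here the S level minus the Y level without further centring, was -0.07 and 0.16 in HK12 at 456380, the SNP before. The change in the HK12 levels therefore began within the 1815 bp between 456380 and 458195. The gene itself was not measured. Over the genome, d centred on its array median was called as different between HK10 and HK12 at 1926 of 12565 SNPs (15.3%). Of these, 1775 were lower in HK10. A higher d in HK12 is therefore not particular to the sides of TRP1.

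The SNPs around TRP1 were split between 456380 and 458195, where the HK12 levels change, so a change in HK12 follows from the choice. The first of the 5 SNPs after the split, 458195, lies left of the gene. From the 26 SNPs before the split to those 5, the median Y level of HK12 A and B changed by -2.75 and -2.36. Their median S level changed by 0.68 and 0.73. In the other 8 isolates the S level changed by -0.08 to 0.18 and the Y level by 0.04 to 0.27. At LYS2 the local levels of HK12 A and B were -3.08 and -3.06 for the S allele and -0.19 and -0.15 for the Y allele.

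**Figure D5:**
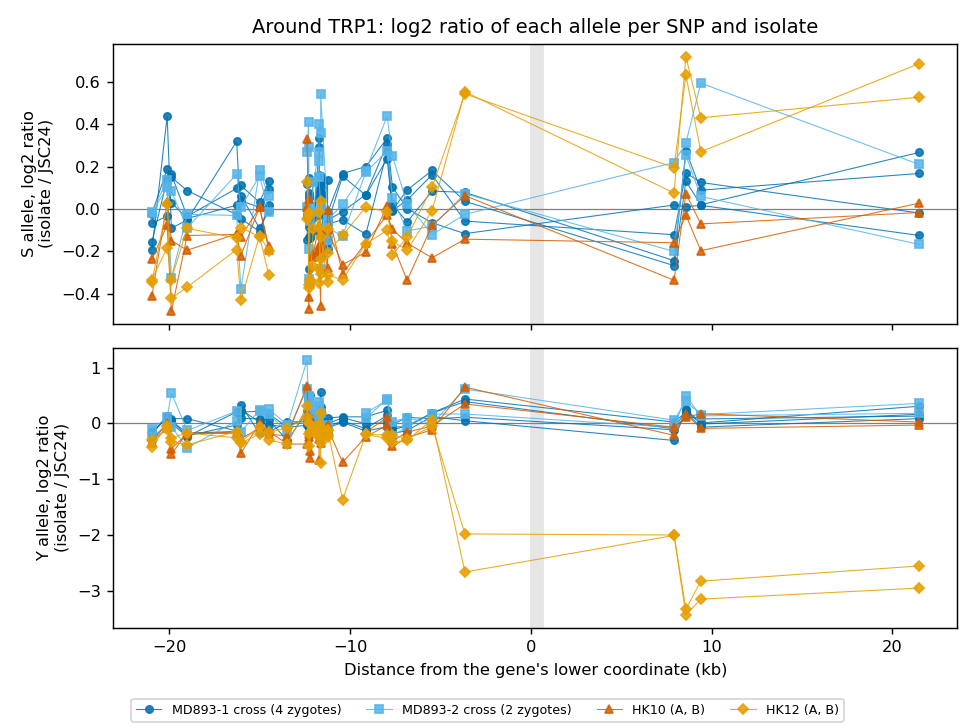
Levels of the S allele (top) and Y allele (bottom) at SNPs around TRP1, as log2 ratio of isolate to JSC24 against distance in kb from the gene's lower coordinate, 1 line per isolate and the gene in grey. The Y allele of both HK12 isolates lies between -3.43 and -1.98 from 458195 to 471247, and the other 8 isolates stay between -0.30 and 0.65 at the SNPs on either side of TRP1.

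Beside LEU2 and ADE2 the median of d stayed within 1 log2 unit of 0 in every isolate. The median of d, not centred on its array median here, was -0.14 to 0.08 over the 12 SNPs left of LEU2. Over the 23 SNPs to its right it was -0.10 to 0.05. In the HK isolates both alleles were raised around LEU2, the S allele by 0.40 to 0.49 and the Y allele by 0.43 to 0.52, and in the zygotes the S allele was at -0.15 to 0.02. Left of ADE2 the median of d was -0.09 to 0.05 over 15 SNPs, and to its right, where only 3 SNPs lie within reach, it was -0.17 to 0.34. The nearest SNPs are 9227 bp and 18222 bp from ADE2, so a change limited to a gene and the 1 kb around it would not have been detectable at ADE2, nor at LEU2 or TRP1.

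The groups were compared by d with limma over all SNPs measured on at least 6 arrays and in each group, and a SNP was called where the Benjamini-Hochberg adjusted p was under 0.05 and the difference at least 1. Of the 23 SNPs, 19 could be tested: 11 of LYS2, 3 of CAN1, 2 of URA3 and 3 of HIS3. Between HK isolates and zygotes 14.4% of 12565 SNPs were called, and 0 of the 19. At an unadjusted p under 0.05, 24% of all SNPs tested and 1 of the 19 passed, the LYS2 SNP 469650, with a difference of -0.55 and the lowest adjusted p of 0.165 by limma, and the largest difference was 0.64. Between HK10 and HK12 15.3% of SNPs were called, again with 0 of the 19. At an unadjusted p under 0.05, 19.5% of all SNPs and 0 of the 19 passed, with a lowest adjusted p of 0.341 and a largest difference of 0.48 by limma. These 19 SNPs lie in 4 places and are not independent of their neighbours.

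Among the marker genes, the largest differences between the crosses were at LYS2, and they did not pass the threshold. Between the MD893-1 and MD893-2 crosses 0.135% of SNPs were called and 0 of the 19, while an unadjusted p under 0.05 was reached by 12.4% of all SNPs and by 7 of the 19, 6 of them at LYS2 and 1 at CAN1 (31251, a difference of -0.65 with an adjusted p of 0.326 by limma). At all 9 SNPs of the LYS2 stretch d was less negative in the MD893-1 zygotes, by 0.11 to 1.28 with a median of 1.01, standard errors of 0.22 to 0.55, and a lowest adjusted p of 0.215 by limma. The zygotes with the least low S level in this stretch, 1 and 2 of the MD893-1 cross, were also those with the smallest share of probes without a value (1.13% and 0.857%). In zygotes 3 and 4 of that cross the share was 3.52% and 3.99%. It was 10.5% and 10.1% for the zygotes of MD893-2 and 5.53% to 7.47% for the HK isolates. The part of this in the difference was not tested. At CAN1 the HK isolates minus zygotes difference in d was 0.37 ± 0.22 (SE) at 33770 and 0.15 ± 0.19 at 31251, with adjusted p of 0.364 and 0.695 by limma.

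Other genes of the same pathways did not show a departure. Lists of genes for lysine, pyrimidine, leucine, tryptophan, histidine and adenine synthesis, for basic amino acid transport, for further marker loci and for ribonucleotide handling held 56 genes, of which 54 were matched and 51 had a SNP in their window. Of their 209 SNPs, 0 of 202 departed for the S allele and 0 of 200 for the Y allele, as at nearly all SNPs of the array. The median local levels of the lists lay between -0.04 and 0.06, beside 0.00 over all SNPs for either allele. For the 8 lysine genes other than LYS2, which include LYS1, encoding saccharopine dehydrogenase, the medians were -0.01 for S and -0.02 for Y over 34 SNPs. The 3 transporter genes LYP1, ALP1 and GAP1, permeases of lysine, of arginine and of amino acids in general, had medians of 0.03 for both alleles over 15 SNPs. The 7 genes of ribonucleotide handling, among them the RNase H2 subunit genes RNH201, RNH202 and RNH203, had medians of 0.01 and 0.03 over 16 SNPs.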

How the data were processed

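Genomic DNA of 10 isolates was read on 2-colour SNP arrays. The authors deposited 1 linear ratio per probe and array, isolate (Cy5) over JSC24 (Cy3) per the labels, and each array's ratios average 1. Of feature extraction, background correction, filters and genome build, nothing is given in the sources used here. Table columns were matched through the strain in the sample source, which reads MD891 or MD892 where titles read MD893-1 or MD893-2, and groups follow the titles.

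The log2 of each ratio was set against the median of its array. Probes of a SNP and allele were averaged. For the limma fits d (S minus Y) was centred on its array median, whereas d beside TRP1, LEU2 and ADE2 was not. A flank needed 10 SNPs. All 10 arrays entered a fit with 4 groups and 3 contrasts (limma 3.58.1, lmFit and eBayes, R 4.3.3; tables in Python 3.11.15), with p-values adjusted over 12565 SNPs. On simulated data with 200 of 10000 SNPs changed, 98% to 100% of differences of 1.5 and 100% of differences of 3 were recovered. Recovery at the marker SNPs themselves was not tested. No departure was tested. The number of arrays limits the precision, and counts or depth do not apply.

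The genes, the gene lists and the comparisons were chosen with earlier results of these data known. Each gene was described by its first and last SNP, its most extreme SNP and the nearest SNPs outside its window, and other runs of departing SNPs were to be named by size. Of 275 tRNA genes, 10 SNPs fell inside, against a median of 26.5 at shifts of 400 to 3000 bp and a low of 6 at a shift of 25 bp. SNPs were most common at the codon's last position on only 7 of 16 chromosomes. These counts are too small to fix the size of any shift. Gene names and windows are therefore approximate, and no sequence is shown.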

Additional observations from a re-analysis of the deposited data

How the results depend on the processing

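Of 217 values recomputed under other settings, 191 stayed within the spread between isolates or within 1.5 times the count, and 26 moved. Of these 217, 13 changed sign, all of them levels near 0 at URA3, HIS3 or the S allele of CAN1, with values of -0.03 to 0.07 after the change. For the MD893-1 against MD893-2 comparison, with 17 SNPs called, the count was 0 with forward-strand and 1 with reverse-strand probes, 48 with d taken against its flank, 1 over SNPs measured on all arrays, 7 at a difference of at least 2, and 2 to 72 with 1 array left out, the highest without zygote 1 of the MD893-2 cross. For HK isolates against zygotes, with 1813, it was 262 against the flank, 721 at a difference of at least 2, 591 with 1 value per HK name, and 1398 to 2370 with 1 array left out. For HK10 against HK12, with 1926, it was 581 against the flank and 1882 to 2374 with 1 array left out. The cause of these moves was not tested. SNPs of the marker genes were called only in fits limited to 4 arrays.

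Numbers or letters are shared between groups, but the deviations of same-numbered samples correlated at only 0.044 (HK A and B) and -0.24 (zygotes 1 and 2), so they were not treated as pairs. With a replicate block, on 4 arrays, 1099 of 12268 SNPs were called for HK10 against HK12. For the crosses 33 of 11959 SNPs were called, 7 of them at marker genes. The same 4 arrays without the block, a setting added after seeing the data, gave 1169 and 1 of the same SNPs, the 1 at a marker gene. Calls at marker genes thus depended on the block, and neighbouring SNPs are not independent, so they are not read as a result about these genes.

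The 11 departing SNP alleles became 19 at a threshold of 0.58, 7 at 2 (all at LYS2), and 10 to 11 with 1 array left out. The S level of the LYS2 window, -3.01, was -3.56 over SNPs in the gene only and -3.03 to -3.0 with 1 array left out. The Y level of LYS2 was -0.0916 with reverse-strand probes, that of URA3 0.0448 with forward-strand probes and 0.0731 against the array's median, and the S level of HIS3 -0.27 with reverse-strand probes. The Y level of CAN1, 1.28, was 1.08 to 1.48 with 1 array left out. Gaps in SNP coverage, missing probe values and the shared control limit what these arrays can show.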
